A study of Mus musculus with 8 samples.

Results

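Mboat7 and the genes packed around it on mouse chromosome 7 were examined in RNA sequencing of the embryonic cortex. The set holds 8 genes (Tfpt, Prpf31, Cnot3, Leng1, Tmc4, Mboat7, Tsen34 and Rps9) of the 22837 genes listed at both stages, and all 8 were listed and passed the filter on low counts at each stage. They were chosen by position, as the genes lying together at the Mboat7 locus, but the set was drawn up after the Mboat7 counts and other results of these libraries had been seen. Differences between the genotypes are therefore given as a description.

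Cortices came from Mboat7+/- and Mboat7-/- embryos at E11.5 and E12.5, 2 per genotype and stage, which makes 8 cortices. The mice were global knockouts kept on C57BL/6N, embryos of either sex were taken, and no Mboat7+/+ cortex was among the libraries, so every embryo carried at least 1 disrupted Mboat7 allele. How the allele disrupts the gene is not given in the sources used here. Poly(A)-selected RNA was sequenced as strand-specific libraries, by one provider and platform at E11.5 and another at E12.5, so a level that differs between the stages cannot be told apart from the change of provider, platform and count table. Total counts lay between 21843330 and 28189771 at E11.5 and between 20799311 and 23330432 at E12.5. Levels are given as CPM, the reads of a gene scaled to a fixed library total, with totals normalized by the TMM method. A count of 3, taken as the limit of detection, equals at most 0.144 CPM, covers counting error only, and lies below every count of the 8 genes.

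Mboat7 encodes LPLAT11, the membrane-bound enzyme that places arachidonic acid on lysophosphatidylinositol and so sets the acyl chains of phosphatidylinositol, the parent of the phosphoinositides. Its neighbours do unrelated work. Tsen34 is a catalytic subunit of the endonuclease that cuts introns from tRNA precursors, Prpf31 holds the U4/U6.U5 snRNP of the spliceosome together, Cnot3 is a subunit of the CCR4-NOT deadenylase, Tfpt belongs to the INO80 chromatin remodelling complex, Rps9 is a protein of the small ribosomal subunit, and Tmc4 belongs to the transmembrane channel-like family. Leng1 takes its name from its place in the leukocyte receptor cluster. Closely spaced genes can share a promoter or read into one another, and an engineered allele can alter the genes beside it, which is why the neighbours of a targeted gene are commonly examined.

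The 8 genes span chr7:3620324-3706897, a stretch of 86.6 kb (GRCm38, GENCODE M21 annotation). From low to high coordinate they are Tfpt on the minus strand, Prpf31 and Cnot3 on the plus strand, Leng1, Tmc4 and Mboat7 on the minus strand, and Tsen34 and Rps9 on the plus strand. Mboat7 (ENSMUSG00000035596) lies at chr7:3677789-3693523 and is read towards Tmc4 (ENSMUSG00000019734, chr7:3665790-3677553), which begins 235 bases past the end of Mboat7 on the same strand. Tsen34 (ENSMUSG00000035585, chr7:3692863-3701024) runs the other way from the start of Mboat7. The annotated 5′ ends of Mboat7 and Tsen34 overlap by 661 bases in GENCODE and by 103 bases in RefSeq. Tfpt and Prpf31 form a second head-to-head pair, with 55 bases between them. Cnot3 and Leng1 meet tail to tail and overlap by 1012 bases. The deposited counts do not say how reads in such overlaps were assigned. The exon bases shared with a gene of the opposite strand were 10.9% of those of Tsen34, 3.32% of Mboat7, 13.9% of Tmc4 and 19.5% of Leng1. They were 18.1% of those of Prpf31 and 6.07% of Cnot3. If strand was not used in counting, reads from these bases cannot be told apart. The submitters' processing notes name both mm10 (the GRCm38 assembly) and GRCm39 without saying which was used for which stage, so these coordinates describe the locus and not the counting.

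**Figure D1:**
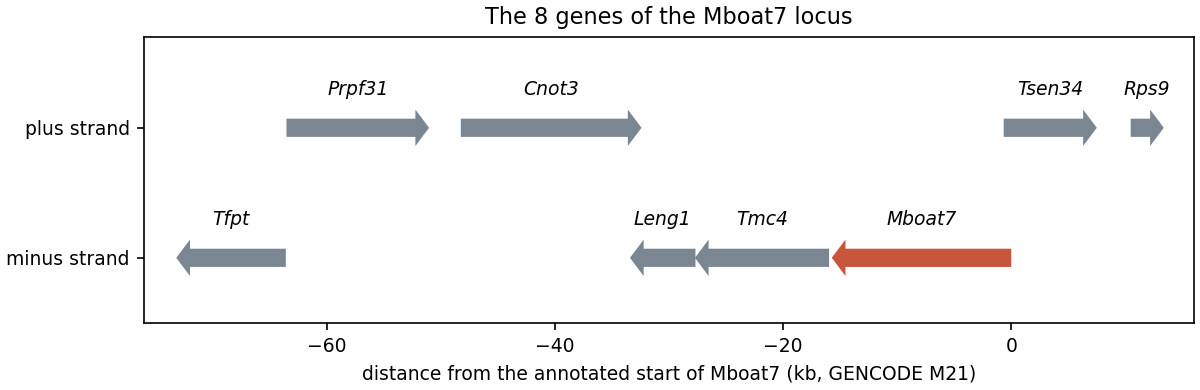
The 8 genes drawn to scale by strand, with distance from the annotated start of Mboat7 in kb on the horizontal axis (GENCODE M21) and arrows pointing in the direction of transcription. Mboat7 (red) starts within the annotated span of Tsen34, which is read in the opposite direction, and ends 235 bases before the start of Tmc4.

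3 promoter windows are shown because they hold the junctions between neighbours whose counts are compared below. Each covers 250 bases before to 50 bases after the start of 1 RefSeq transcript of the gene (GRCm38.p6), written 5′ to 3′ on the strand of the gene named. For Prpf31 and Tmc4 this start is the outer end of the RefSeq span, while for Mboat7 it lies 203 bases inside the span, so the window does not reach 250 bases upstream of the outermost start. In the window of Mboat7 (chr7:3692937-3693236, minus strand) the 103 capitals are the bases inside the RefSeq spans of both Mboat7 and Tsen34, the shared 5′ end. In that of Tmc4 (chr7:3677504-3677803, minus strand) the 15 capitals are the last bases of Mboat7. In that of Prpf31 (chr7:3629735-3630034, plus strand) the 55 capitals are the whole gap between Tfpt and Prpf31.
Mboat7: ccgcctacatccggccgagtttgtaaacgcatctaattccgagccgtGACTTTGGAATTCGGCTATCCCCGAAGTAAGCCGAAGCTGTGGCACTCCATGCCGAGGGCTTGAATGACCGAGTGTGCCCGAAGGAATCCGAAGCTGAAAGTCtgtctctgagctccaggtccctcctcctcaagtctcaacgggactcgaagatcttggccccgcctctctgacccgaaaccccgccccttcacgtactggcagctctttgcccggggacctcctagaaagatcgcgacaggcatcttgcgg
Tmc4: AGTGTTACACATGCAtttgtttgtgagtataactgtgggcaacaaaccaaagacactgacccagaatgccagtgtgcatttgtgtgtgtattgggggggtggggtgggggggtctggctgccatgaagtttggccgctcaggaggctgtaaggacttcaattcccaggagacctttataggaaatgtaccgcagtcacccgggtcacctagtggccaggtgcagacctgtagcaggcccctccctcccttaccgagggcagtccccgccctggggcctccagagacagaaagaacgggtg
Prpf31: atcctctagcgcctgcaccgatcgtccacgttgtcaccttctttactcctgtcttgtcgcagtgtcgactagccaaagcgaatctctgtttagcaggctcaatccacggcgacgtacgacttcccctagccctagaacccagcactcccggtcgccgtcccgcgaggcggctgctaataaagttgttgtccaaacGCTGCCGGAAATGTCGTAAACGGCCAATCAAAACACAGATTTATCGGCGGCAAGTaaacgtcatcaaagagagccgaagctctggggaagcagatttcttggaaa

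Short promoter motifs were looked for on both strands of such a window of each of the 8 genes and of all 27025 RefSeq windows of 300 bases, 1 per gene, and none of the 5 motifs contains another. The transcript start used lay 523 bases inside the RefSeq span for Tsen34, 203 for Mboat7, 87 for Rps9 and 22 for Cnot3, and at its outer end for the other 4 genes. The GC box GGGCGG was found in 5 of the 8 windows (Cnot3, Leng1, Tmc4, Mboat7 and Tsen34), against 35.9% of all windows. The CCAAT box CCAAT was found in 5 (Tfpt, Prpf31, Cnot3, Tmc4 and Rps9), against 37.9%. The ETS core CCGGAA was found in 4 (Tfpt, Prpf31, Leng1 and Tsen34), against 15.2%, and the TATA box TATAAA in 2 (Tfpt and Tmc4), against 14.2%. The windows of Tfpt and Prpf31 overlap, and both hold the 55 bases between the genes, where a CCAAT box and an ETS core lie. For these motifs the 2 genes are therefore not separate observations. The CRE TGACGTCA was found in Rps9 alone, against 1.88%. The Mboat7 window as printed held a GC box and none of the other motifs. Bases farther upstream were searched only in part, as the window of Tsen34, which lies there and held a GC box and an ETS core.

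Mboat7 itself, the targeted gene, was read in every cortex. At E11.5 it had 700 and 876 counts in the Mboat7+/- cortices, against 1103 and 860 in the cortices labelled Mboat7-/-. At E12.5 it had 739 and 782 counts in the Mboat7+/- cortices, against 730 and 729 in those labelled Mboat7-/-. In CPM the E11.5 values were 32.3 and 33.1 against 39.0 and 34.8, so both cortices labelled Mboat7-/- were above both Mboat7+/- cortices. At E12.5 they were 35.5 and 36.2 against 31.7 and 32.2, and the order was turned round. The fitted log2 fold change (labelled Mboat7-/- over Mboat7+/-) was 0.18 at E11.5, with a standard error of 0.11 and a 95% interval from -0.07 to 0.42. At E12.5 it was -0.17, with a standard error of 0.10 and an interval from -0.39 to 0.06. As a ratio, the E12.5 level in the cortices labelled Mboat7-/- was 0.891 of that in Mboat7+/- cortices, with an interval from 0.762 to 1.04. The difference between the 2 stages was -0.34 on the log2 scale (interval -0.65 to -0.03), and a fit over both stages gave 0.01 (interval -0.17 to 0.19). A count over the whole gene does not show which exons the reads lie on, and the Mboat7 count was not lower in the cortices labelled Mboat7-/- at E11.5, so the genotypes are given here as labelled.

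Tsen34, which shares its 5′ end with Mboat7, had the largest E12.5 genotype difference of the 8 genes relative to its standard error. It was at 105.3 and 119.1 CPM in the Mboat7+/- cortices, against 82.1 and 75.2 CPM in those labelled Mboat7-/-, from counts of 2192 and 2572 against 1890 and 1702. Both cortices labelled Mboat7-/- lay below both Mboat7+/- cortices. The log2 fold change was -0.51 (standard error 0.10, interval -0.73 to -0.29), a ratio of 0.701 (interval 0.602 to 0.816). Between cortices of the same replicate number the log2 difference was -0.36 for number 1 and -0.66 for number 2. By p-value Tsen34 stood at position 16 of 16326 genes tested. At E11.5 it was at 126.1 and 141.5 CPM in the Mboat7+/- cortices, against 117.2 and 125.7 CPM in those labelled Mboat7-/-, close to touching. The E11.5 log2 fold change was -0.14 (standard error 0.08, interval -0.33 to 0.04), and -0.05 without the second Mboat7+/- cortex. The difference between the stages was -0.37 (interval -0.66 to -0.09), and the value over both was -0.32 (interval -0.50 to -0.14). With edgeR's quasi-likelihood test their adjusted p-values were 0.882 and 0.295, so neither was called.

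The E12.5 difference of Tsen34 was also seen against its neighbours within the same cortex, where no normalization enters. For each Prpf31 count there were 0.982 and 1.04 Tsen34 counts in the Mboat7+/- cortices, against 0.78 and 0.786 in those labelled Mboat7-/-. Against Cnot3 the ratios were 1.02 and 1.21 in the former and 0.877 and 0.747 in the latter. Against Rps9 they were 0.113 and 0.11 in the former and 0.0832 and 0.0865 in the latter. At E12.5 each ratio was lower in both cortices labelled Mboat7-/-, and at E11.5 each overlapped between the genotypes. The 3 ratios share the Tsen34 counts and are not separate observations. Mboat7 counts were 25.6% and 23.4% of the Tsen34 counts in the E11.5 Mboat7+/- cortices, against 33.3% and 27.7% in those labelled Mboat7-/-. At E12.5 this share was 33.7% and 30.4% in the Mboat7+/- cortices, against 38.6% and 42.8% in those labelled Mboat7-/-. Within the head-to-head pair, the Mboat7 share was thus higher in the cortices labelled Mboat7-/- at both stages, although Mboat7 itself changed order. Against genes outside the pair it was not: at E12.5 Mboat7 counts were 33.1% and 31.7% of the Prpf31 counts in Mboat7+/- and 30.1% and 33.7% in those labelled Mboat7-/-, which overlap. Against Cnot3 they were 34.4% and 36.8% in Mboat7+/- and lower, at 33.9% and 32.0%, in those labelled Mboat7-/-. At E11.5 both of these ratios were higher in the cortices labelled Mboat7-/-, without overlap.

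**Figure D2:**
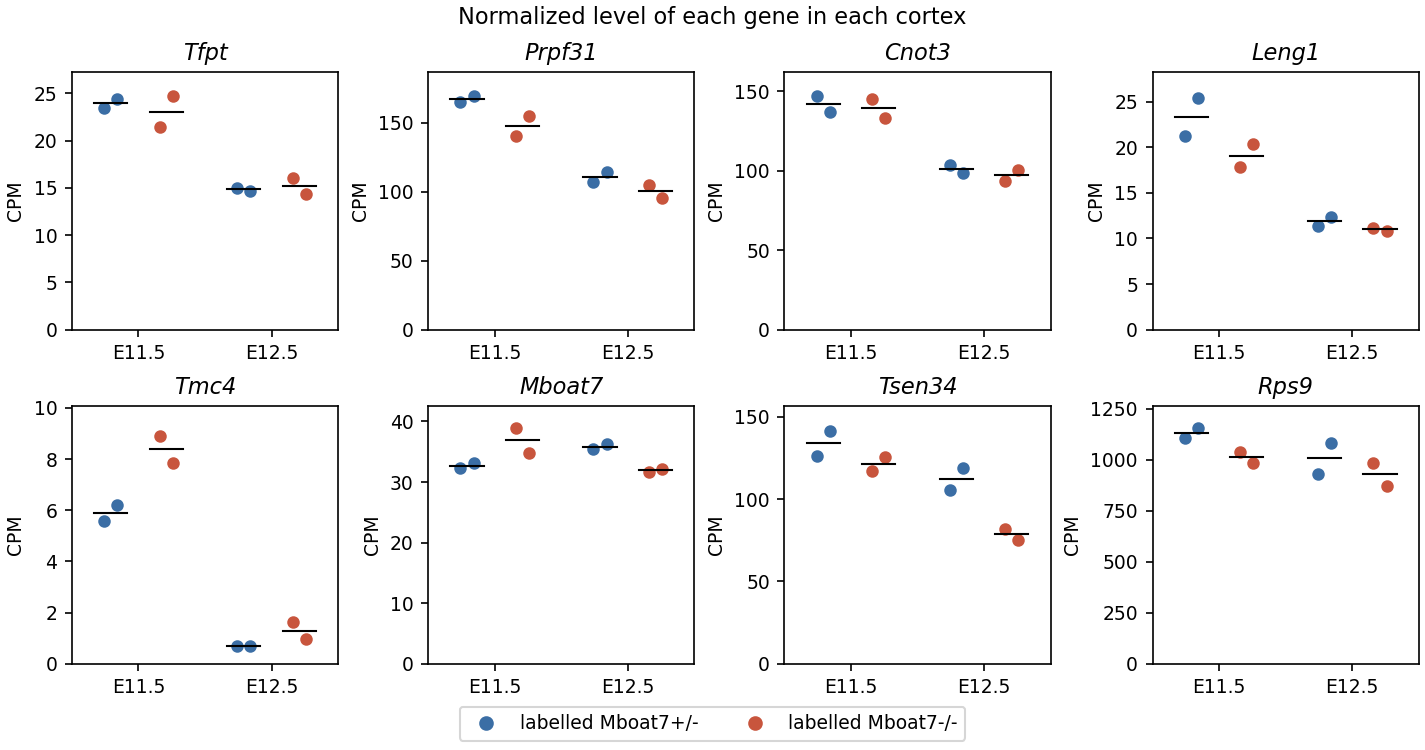
Level of each gene in CPM (vertical axes, from 0, linear) in each of the 8 cortices, by stage; blue points are Mboat7+/- cortices, red points are cortices labelled Mboat7-/-, and black lines are means of 2. Tsen34 at E12.5 separates at 105.3 and 119.1 against 82.1 and 75.2 CPM, Tmc4 is higher in the cortices labelled Mboat7-/- at both stages, and Mboat7 changes order.

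Tmc4, downstream of Mboat7 on the same strand, was the lowest gene of the locus and lay higher in the cortices labelled Mboat7-/- at both stages. At E11.5 it had 121 and 164 counts in the Mboat7+/- cortices, against 252 and 194 in those labelled Mboat7-/-, which is 5.59 and 6.2 against 8.91 and 7.86 CPM. At E12.5 it had 14 and 15 counts against 37 and 22, which is 0.673 and 0.695 against 1.61 and 0.972 CPM. The genotypes did not overlap at either stage. The log2 fold change was 0.51 at E11.5 (standard error 0.22, interval 0.01 to 1.00) and 0.91 at E12.5 (standard error 0.44, interval -0.05 to 1.87). At E12.5 it rests largely on the first cortex labelled Mboat7-/-, without which it was 0.50. The fit over both stages gave 0.56 (interval 0.18 to 0.95). Tmc4 counts were 17.3% and 18.7% of the Mboat7 counts of the same cortex at E11.5 in Mboat7+/- and 22.8% and 22.6% in those labelled Mboat7-/-. At E12.5 they were 1.89% and 1.92% in Mboat7+/- and 5.07% and 3.02% in those labelled Mboat7-/-. Of the exon bases of Tmc4, 13.9% are shared with Gm15929 on the opposite strand.

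**Figure D3:**
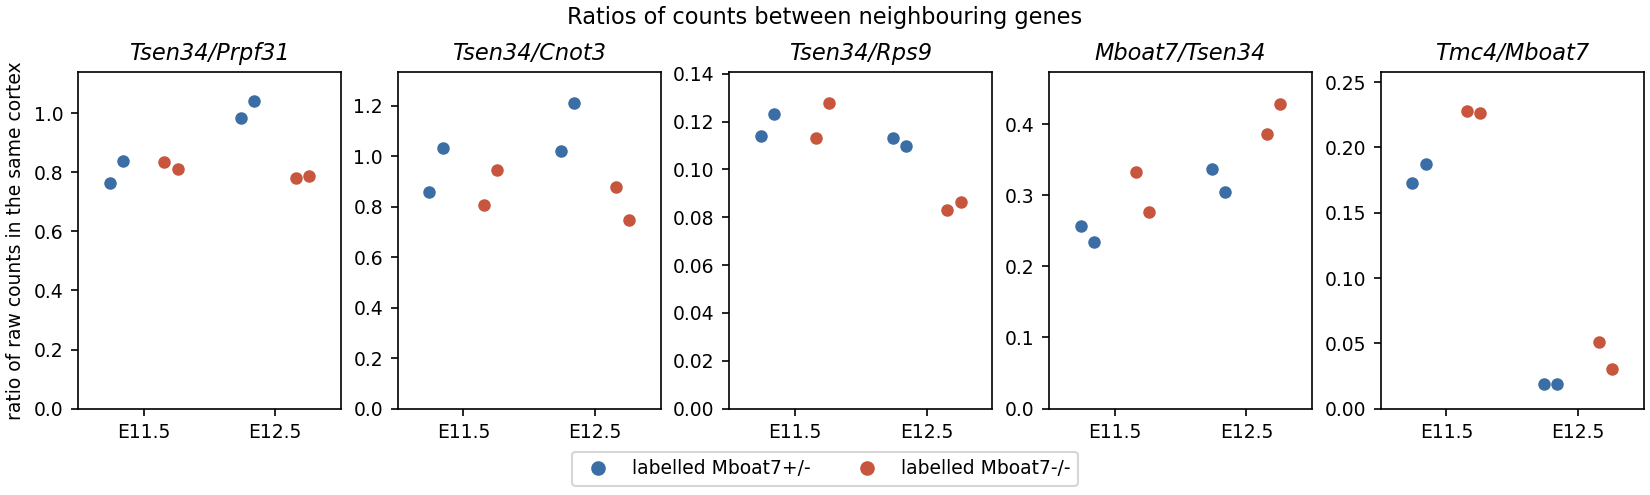
Ratios of raw counts between 2 genes of the locus in the same cortex (vertical axes, from 0, no unit), by stage; blue points are Mboat7+/- cortices and red points cortices labelled Mboat7-/-. At E12.5 the 3 ratios with Tsen34 on top are lower in the cortices labelled Mboat7-/-, while Mboat7/Tsen34 and Tmc4/Mboat7 are higher there at both stages.

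The 5 other neighbours had smaller E12.5 differences than Tsen34 and Tmc4, while at E11.5 those of Leng1, Prpf31 and Rps9 were as large as that of Tsen34 or larger. Prpf31 was at 164.9 and 169.2 CPM in the E11.5 Mboat7+/- cortices, against 140.6 and 154.8 CPM in those labelled Mboat7-/-, with a log2 fold change of -0.18 (standard error 0.07, interval -0.34 to -0.01). At E12.5 it was at 107.3 and 114.3 against 105.2 and 95.7 CPM, a log2 fold change of -0.14 (standard error 0.09). Without the first cortex labelled Mboat7-/- the E11.5 value was -0.11, and without the second the E12.5 value was -0.07. Prpf31 thus lay lower in both cortices labelled Mboat7-/- at each stage, with -0.16 over both (interval -0.28 to -0.03 on the log2 scale). Leng1 was also lower without overlap at each stage, at 21.2 and 25.4 against 17.8 and 20.3 CPM at E11.5 and at 11.4 and 12.4 against 11.2 and 10.8 CPM at E12.5. Its log2 fold changes were -0.30 (standard error 0.15) and -0.12 (standard error 0.15), and without the second Mboat7+/- cortex of the stage they were -0.15 and -0.05. Rps9 was at 1107.8 and 1154.6 CPM in the E11.5 Mboat7+/- cortices, against 1039.3 and 985.2 CPM in those labelled Mboat7-/-, with a log2 fold change of -0.16 (standard error 0.06, interval -0.29 to -0.03). At E12.5 the Rps9 values overlapped, at 930.3 and 1082.4 against 986.2 and 869.7 CPM. Cnot3 overlapped at both stages, with log2 fold changes of -0.03 and -0.06, and so did Tfpt, with -0.06 and 0.04. The partners of the second head-to-head pair, Tfpt and Prpf31, therefore had different values at E11.5, but the difference between them was not tested.

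**Figure D4:**
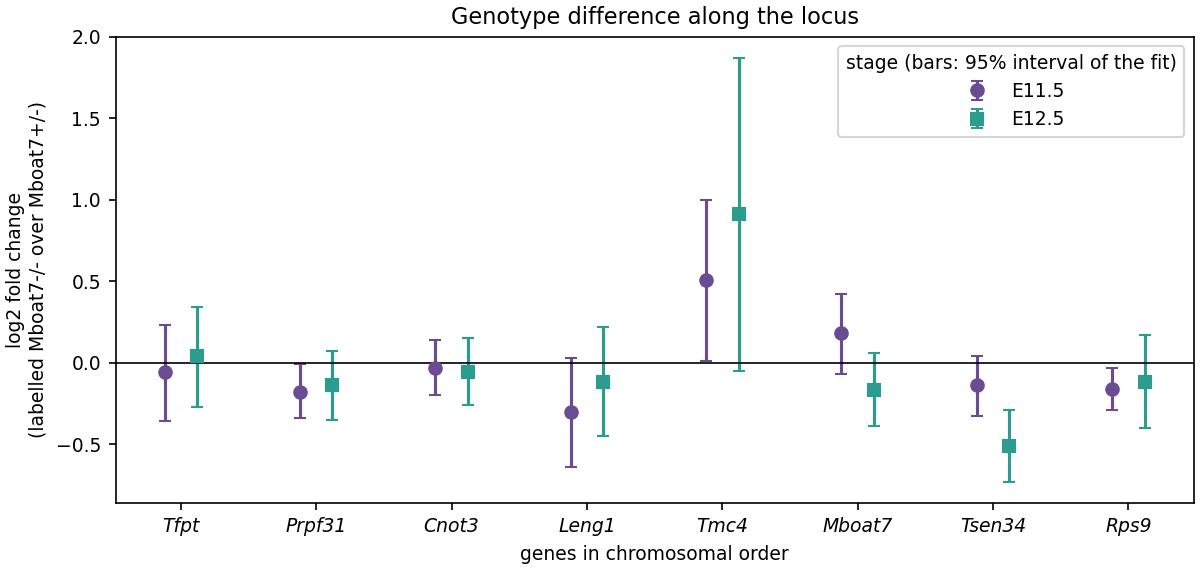
Log2 fold change (labelled Mboat7-/- over Mboat7+/-, vertical axis) of the 8 genes in chromosomal order, at E11.5 (circles) and E12.5 (squares); bars are 95% intervals from edgeR's fit with 2 cortices per genotype. Values other than those of Tmc4, Mboat7 and Tsen34 lie between -0.30 and 0.04.

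Set against all genes, the locus leaned slightly to lower values in the cortices labelled Mboat7-/-. Its median log2 fold change was -0.10 for E11.5 and -0.12 for E12.5, with 6 of 8 genes below 0 at each stage. All genes tested had medians of -0.005 and 0.005, with 51.1% and 48.8% of them below 0. With edgeR's quasi-likelihood test and Benjamini-Hochberg adjustment, none of the 8 genes had an FDR under 0.05 at either stage. Of all genes tested, 0.0% did at E11.5 and 0.0184% at E12.5. For the difference between the stages and for the value over both, 0 of 15004 genes had an FDR under 0.05. The intervals of those fits that leave out 0, printed for Mboat7, Tsen34, Tmc4 and Prpf31, are not adjusted for the number of genes. Unadjusted p-values under 0.05 were found for 3 of the 8 genes at E11.5 (Prpf31, Tmc4 and Rps9) and for 1 at E12.5 (Tsen34), where 14.1% and 4.23% of all genes tested had one. DESeq2 called 0 at E11.5 and 1, Tsen34, at E12.5, where it called 1.12% and 0.0613% of all genes. At E11.5 it gave no adjusted p for Mboat7, Tfpt, Leng1 and Tmc4, which could thus not be called. The adjusted p of Tsen34 at E12.5 was 0.331 with edgeR and 0.0275 with DESeq2, and it was 0.0275 with edgeR when the first Mboat7+/- cortex was left out and 0.00268 when the first cortex labelled Mboat7-/- was left out. The call of Tsen34 thus depends on the tool and on single cortices.

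At E11.5, 2 of the 8 genes (Tmc4 and Mboat7) were higher in both cortices labelled Mboat7-/- than in both Mboat7+/- cortices, where 23.1% of all genes were, and 4 (Prpf31, Leng1, Tsen34 and Rps9) were lower, where 23.3% were. At E12.5, 1 gene (Tmc4) was higher, where 16.9% of all genes were, and 4 (Prpf31, Leng1, Mboat7 and Tsen34) were lower, where 15.2% were. At both stages, 1 gene (Tmc4) was higher, where 4.76% of the 13639 genes tested at both stages were, and 3 (Prpf31, Leng1 and Tsen34) were lower, where 4.89% were.

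Genes outside the 8 were read in the same way. Ndufa3, a subunit of respiratory complex I and the gene next to Tfpt, was at 31.5 and 43.9 against 33.0 and 38.9 CPM at E11.5 and at 43.4 and 48.9 against 42.0 and 34.4 CPM at E12.5. Its log2 fold changes were -0.08 and -0.27 (standard errors 0.16 and 0.12). Cacng8, a brain subunit associated with glutamate receptors, had -0.38 and -0.27 (standard errors 0.21 and 0.17). Beyond Rps9 lie the Pira and Pirb receptor genes of leukocytes, which had at most 6 counts in any cortex. Within 1 Mb of Mboat7, the 8 genes left out, 24 genes were tested at E11.5 and 23 at E12.5, with median log2 fold changes of -0.07 and -0.13. Of these, 4 genes (16.7%) were lower without overlap at E11.5 and 9 (39.1%) at E12.5, against 23.3% and 15.2% of all genes. As many, 4 (16.7%), were higher without overlap at E11.5, and 2 (8.7%) at E12.5, against 23.1% and 16.9% of all genes. Within 5 Mb, 61 genes were tested at each stage, the median was -0.08 at both, and 31.1% and 27.9% were lower and 13.1% and 8.2% higher without overlap. EdgeR's test called 0 of the 61 at each stage, with an unadjusted p under 0.05 for 9 and 3, near the 14.1% and 4.23% of all genes, and DESeq2 called 1 and 0.

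By the exon length of each gene, the order of the levels was the same at both stages. Per kb of annotated exon, over all 4 cortices of a stage, Rps9 was highest (mean 424.9 CPM per kb at E11.5 and 383.5 at E12.5), followed by Tsen34 (50.2 and 37.6), Prpf31 (28.9 and 19.4), Cnot3 (19.7 and 13.9), Tfpt (19.6, and at most 13.3 in an E12.5 cortex), Leng1 (9.52 and 5.14), Mboat7 (4.17 and 4.07) and Tmc4 (1.67 and 0.231). Only Cnot3 and Tfpt, neighbours in this order, overlapped over the cortices. Divided by the longest coding transcript instead, Mboat7 stood above Leng1 at both stages, and Cnot3 stood above Prpf31 at E12.5 (35.1 against 33.6 CPM per kb) but not at E11.5. The 2 partners of a head-to-head pair were thus read at different depths, with Tsen34 above Mboat7 and Prpf31 above Tfpt in every cortex. From E11.5 to E12.5 the mean CPM of Mboat7 was nearly the same (34.8 and 33.9), while Tmc4 went from 7.14 to 0.987, a ratio of 0.138. The other 6 genes had ratios between 0.54 and 0.902.

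Across the 8 cortices, with each stage centred on its own mean, the genes most like Mboat7 in log2(CPM + 0.5) were Erlin1, Mybbp1a, Nasp, Tcaf2 and Sntb1, with Pearson r between 0.945 and 0.995 among 13638 other genes. These points share libraries and depth, and the 5 names are the extremes of a long ranking. Their log2 fold changes at E11.5 lay between 0.07 and 0.54, those at E12.5 between -0.39 and -0.11. Because the 5 genes were picked by likeness to Mboat7 in these cortices, the directions follow largely from that choice. Of the neighbours, Tsen34 had an r of 0.372 to Mboat7 (position 2966) and Tfpt the lowest, -0.644 (position 12504). Tmc4 had -0.013.

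Other subunits of the complexes of Cnot3, Prpf31 and Tfpt, and relatives of Mboat7 and Tmc4, were counted in 5 lists that hold 49 genes. EdgeR's test called none of the 45 tested at E11.5 or of the 43 tested at E12.5, with an unadjusted p under 0.05 for 7 and 0 (14.1% and 4.23% of all genes), and DESeq2 called 2 and 0 (1.12% and 0.0613% of all genes). The CCR4-NOT list had medians of 0.04 and -0.02, the U4/U6.U5 snRNP list -0.04 and -0.09, and the INO80 list -0.12 and -0.03. Among membrane-bound O-acyltransferases, 6 of 8 tested were above 0 at E11.5 and 6 of 7 at E12.5, with medians of 0.07 and 0.02. The transmembrane channel-like list had medians of 0.08 and 0.05.

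Markers of the tissue were present, with all 11 genes of the dorsal telencephalon above 1 CPM in every cortex. All 4 markers of the ventral telencephalon were also above 1 CPM in every cortex. They summed to between 301.1 and 372.4 CPM at E11.5 and between 428.6 and 468.9 CPM at E12.5, against at least 2593.1 and 2735.1 CPM for the dorsal markers. Hox genes of the hindbrain and trunk summed to at most 0.185 CPM. Blood markers summed to between 2774.5 and 3393.6 CPM in the E11.5 Mboat7+/- cortices and between 1709.2 and 1963.0 CPM in those labelled Mboat7-/-, from the 2 of 5 markers with counts there. At E12.5, with 5 of 5 markers, the sums overlapped, at 4600.5 and 6572.6 against 4658.6 and 3283.9 CPM. Rps9, Tsen34, Prpf31 and Leng1 each had their highest and their lowest E12.5 value in the same cortices as this sum. Tfpt, Cnot3, Tmc4 and Mboat7 did not. The E11.5 blood sum was highest in the first Mboat7+/- cortex, at 3393.6 CPM, and lowest in the first cortex labelled Mboat7-/-, at 1709.2 CPM. At that stage Rps9, Tsen34, Prpf31 and Leng1 were each highest in the second Mboat7+/- cortex instead. How many of all genes share the E12.5 order was not counted. Mesenchyme markers summed to between 1377.4 and 1417.6 CPM in the E11.5 Mboat7+/- cortices and between 1561.4 and 1775.9 CPM in those labelled Mboat7-/-, and overlapped at E12.5. Xist had 17875 counts in the first E11.5 Mboat7+/- cortex and at most 2 in every other. The part of these differences in the values of the 8 genes was not tested. In bulk tissue, fewer cells that express a gene and less RNA per cell cannot be told apart.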

How the data were processed

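The authors deposited raw read counts per gene, without normalization, in one table per stage, with genes named by symbol at E11.5 and by Ensembl identifier at E12.5. Per the labels, libraries were poly(A)-selected and directional. The submitters' processing notes name HISAT2, Subread, mm10 and GRCm39, while the annotation and the strand setting are not given in the sources used here. Identifiers were matched to symbols through RefSeq and gene name tables (81.4% of E12.5 genes with a count).

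Each stage was fitted alone over all genes with edgeR 4.0.16 in R 4.3.3 (filterByExpr at its minimum count of 10, TMM factors, the quasi-likelihood test, and a threshold of 0.05 on Benjamini-Hochberg adjusted p), and genes of both tables were fitted together with stage, genotype and their interaction. Standard errors and 95% intervals come from these fits. The fits were tested on simulated data. The genes named are the 8 members, other RefSeq genes between them, the 5 nearest protein-coding genes at each end, the 5 most like Mboat7, and the extremes of partner lists. The members and lists were chosen with earlier results of these data known. Names within 5 Mb other than these are not given. A further partner list is not reported here.

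The batch number of each cortex is its replicate number. It was taken to pair the cortices in the replicate block and in the Tsen34 differences by replicate number, while the main fits used no pairing. Across genes, cortices of the same number deviated from the mean of their genotype with a correlation of 0.055 (E11.5) and -0.12 (E12.5). Alternatives were RLE, upper-quartile and no normalization factors, DESeq2 1.42.0, no filter, a minimum of 10 counts per cortex, the replicate block and leaving out each cortex. The fit over both stages and the earlier form of edgeR's test were added after the values were seen. Replicates differed by more than sampling noise (chi-square per degree of freedom 8.7 to 14.9). Whether embryos came from separate litters is not given in the sources used here.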

Additional observations from a re-analysis of the deposited data

How the results depend on the processing

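Of 192 alternative values for the genotype differences of the 8 genes, 185 kept their direction and their side of the threshold. The E11.5 DESeq2 values of Mboat7, Tfpt, Leng1 and Tmc4 are counted among the 185 although they had no adjusted p. The threshold was passed in 3, all of Tsen34 at E12.5: -0.52 with DESeq2 (adjusted p = 0.0275), and, with edgeR's quasi-likelihood test, -0.60 without the first Mboat7+/- cortex (adjusted p = 0.0275) and -0.58 without the first cortex labelled Mboat7-/- (adjusted p = 0.00268). Over all alternatives its adjusted p ran from 0.00268 to 0.827 (edgeR or DESeq2). The number of the 8 genes, and of the 7 neighbours, called at E12.5 was thus 1 with DESeq2 and from 0 to 1 with each cortex left out, against 0 as reported, and the cause was not tested. With each cortex left out, values near 0 changed sign: Tfpt at E11.5 ran from -0.16 to 0.04 and Tfpt at E12.5 from -0.05 to 0.11, and Cnot3 from -0.09 to 0.03 at E11.5. So did differences between the stages, from -0.02 to 0.20 for Tfpt, -0.05 to 0.11 for Prpf31, -0.09 to 0.03 for Cnot3, 0.00 to 0.71 for Tmc4 and -0.06 to 0.15 for Rps9. The Mboat7 difference at E11.5 ran from 0.09 to 0.25, that at E12.5 from -0.18 to -0.15, and Tmc4 at E12.5 from 0.50 to 1.23. At E11.5 Leng1 ran from -0.42 to -0.15, Prpf31 from -0.25 to -0.11 and Tsen34 from -0.22 to -0.05. At E12.5 Leng1 ran from -0.17 to -0.05, Prpf31 from -0.22 to -0.07 and Rps9 from -0.22 to 0.00.

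With the replicate block, Tsen34 at E12.5 was -0.51 (adjusted p = 0.0746 with edgeR) and Mboat7 was 0.17 and -0.17. The block changed no call among the 8 genes, while over all genes it raised the number with an FDR under 0.05 at E11.5 from 0 to 505 and at E12.5 from 3 to 32. DESeq2 gave 168 and 10. With single cortices left out these numbers at E11.5 ran from 1 to 1184, those at E12.5 from 30 to 323. Where a cortex was left out, the lone cortex of its genotype was assumed to vary like the other pair. With 2 cortices per genotype, the interval of Tmc4 at E12.5, from 14 to 37 counts, spans nearly 2 log2 units. The differences of Cnot3 and Tfpt were smaller than their standard errors, and whether differences of that size could be detected was not tested.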
